A study of Mus musculus with 12 samples.

Results

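In mouse resting B (RB) cells, 5 probes for noncoding RNA were higher under every stimulus given than in unstimulated cells. The microarray carried 61307 non-control probes of 60 bases, of which 20679 were named for noncoding RNA clusters, and the members were chosen by their measured signal, in that a probe of this kind was kept when each of the 10 stimulated arrays lay at least 1 log2 unit above the higher of the 2 unstimulated arrays and its spot was well above background on all 10. Levels are log2 signal relative to the 75th percentile of the same array, so that 0 is that percentile and a difference of 1 is a doubling. The 5 members made up 0.0242% of the noncoding RNA probes, and 2 of the 40628 other probes (0.00492%) met the same rule.

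Splenic RB cells of female BALB/c mice aged 6 weeks were compared in 6 conditions with 2 arrays each. The cells were enriched by removal of other cell types and of CD43+ cells, and RNA was taken after 4 h in culture with no stimulus (unstimulated), with Pam2CSK4, a synthetic lipopeptide that binds TLR2, with an antibody to the costimulatory molecule CD86 (anti-CD86), with anti-CD86 and Pam2CSK4 together (TLR2.CD86), with an antibody to CD40 (anti-CD40), or with anti-CD40 and Pam2CSK4 (anti-CD40+Pam2CSK4). The methods call the paired arrays biological replicates without saying how many animals each came from, and they describe biotinylated anti-CD86 cross-linked with streptavidin, while cells given only an isotype antibody were not among the arrays used here. Slide 1 held 8 arrays, namely both unstimulated, both anti-CD40+Pam2CSK4 and replicate 1 of the other 4 conditions, and slide 2 held replicate 2 of those 4, so the slide and the replicate number cannot be told apart in them.

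Long noncoding RNAs are transcripts that are not translated into protein, and many of those that carry a poly(A) tail are spliced like messenger RNA. Some act at the locus they are read from and others in the cytoplasm, and for most of them no function is known. TLR2 signals through MyD88 and CD40 through TRAF adaptors, and both pathways lead to NF-kB, whose target genes in B cells include noncoding transcripts such as the host transcript of miR-155. Labelling was primed with oligo-dT, so the arrays report on RNA that this primer reaches. In a culture of many cells, a higher signal from more cells and from more RNA per cell cannot be told apart.

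The probe sequences are shown because the array design gave these probes no genome position and the names give clusters, not genes. They are written 5′ to 3′, and capitals mark the 27 bases that the first and second probe share, at bases 1 to 27 of the first and 34 to 60 of the second.
u200009: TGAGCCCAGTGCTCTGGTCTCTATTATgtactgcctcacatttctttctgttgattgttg
n205050_u200009_AK133110: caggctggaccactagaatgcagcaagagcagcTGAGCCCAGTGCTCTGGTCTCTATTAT
n199528_u195428_AK082398: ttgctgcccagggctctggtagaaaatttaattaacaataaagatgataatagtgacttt
n181219_u180000_AK154890: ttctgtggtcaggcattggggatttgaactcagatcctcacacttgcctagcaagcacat
u180569: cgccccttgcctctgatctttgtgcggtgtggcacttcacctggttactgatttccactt

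The first pair therefore read the same transcribed stretch and, as their names share the cluster u200009, they count as 1 target. No other pair of members shared a run of more than 8 bases. GC content ran from 33.3% in n199528_u195428_AK082398 to 53.3% in n205050_u200009_AK133110 and u180569, against a median of 46.7% over all noncoding RNA probes. Words of 16 bases that also occur, on either strand, in the RefSeq promoter windows described next were counted. The windows cover only the surroundings of gene starts, so these counts do not show whether a probe is unique among transcripts. u200009 shared such a word with 2 genes and n205050_u200009_AK133110 with 3, the gene of their own window included, n181219_u180000_AK154890 with 1, and n199528_u195428_AK082398 and u180569 with 0, which was also the median of all noncoding RNA probes.

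The overlapping pair could be placed. Against RefSeq promoter windows of build GRCm38.p6, which run from 250 bases before to 50 bases after a gene start, u200009 matched the plus strand of chromosome 14 at chr14:76677653-76677712 and n205050_u200009_AK133110 at chr14:76677620-76677679. Both positions lie in the window of the lncRNA gene 1700105F02Rik, which is read from the minus strand, upstream of its start, with n205050_u200009_AK133110 beginning 35 bases from it and u200009 farther away. They also lie 52 to 144 bases inside the lncRNA gene 1700108F19Rik, read from the plus strand at chr14:76677568-76687108, so the probes have the strand of 1700108F19Rik. Whether this stretch is exon or intron was not given in the table used here. The other 3 members matched none of the 32851 windows and are given without a position.

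The array's own probe for 1700108F19Rik did not move with the pair. It was well above background on 0 of 12 arrays, with unstimulated levels of -6.24 and -5.78 and stimulated levels of -6.54 to -5.66, and 1700105F02Rik had no probe. The nearest protein-coding gene with a probe was Serp2, whose product is a stress-associated protein of the endoplasmic reticulum, 120546 bases away. Serp2 stood at 1.33 and 1.40 on the unstimulated arrays and at 0.60 to 1.18 on the stimulated ones, the opposite direction to the pair.

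u200009 had the widest gap between unstimulated and stimulated cells among the members. Its unstimulated arrays were at -2.04 and -3.11, Pam2CSK4 at 4.79 and 5.84, anti-CD86 at 3.99 and 5.20, TLR2.CD86 at 5.40 and 6.61, anti-CD40 at 2.46 and 3.25, and anti-CD40+Pam2CSK4 at 3.59 and 2.52. The lowest stimulated array, from anti-CD40, was 4.50 above the higher unstimulated array, and the spot was well above background on all 12 arrays. As means of 2 arrays this was 237-fold over unstimulated in Pam2CSK4, 144-fold in anti-CD86, 383-fold in TLR2.CD86, 43.2-fold in anti-CD40 and 49.5-fold in anti-CD40+Pam2CSK4, with SDs of the 6 means between 0.56 and 0.86 log2 units. These folds over unstimulated are what chose the probe and carry no test, here and for the other 4 members.

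n205050_u200009_AK133110, the overlapping probe, had the same shape over a smaller range. It stood at -3.46 and -4.49 in unstimulated cells, 0.23 and 0.83 in Pam2CSK4, -0.01 and 0.78 in anti-CD86, 0.81 and 1.34 in TLR2.CD86, -1.44 and -0.74 in anti-CD40 and -0.66 and -0.87 in anti-CD40+Pam2CSK4. The margin was 2.02, and 1 of the 2 unstimulated spots was well above background. With the other unstimulated spot set to the lowest signal among probes well above background on its array, the means were at least 16.2-fold over unstimulated in Pam2CSK4, 14.7-fold in anti-CD86, 23.7-fold in TLR2.CD86, 5.28-fold in anti-CD40 and 6.61-fold in anti-CD40+Pam2CSK4, so both probes of the cluster placed TLR2.CD86 first and anti-CD40 last.

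n199528_u195428_AK082398 was at -3.97 and -4.47 in unstimulated cells, with 1 of the 2 spots well above background. It was at -0.79 and 0.27 in Pam2CSK4, -1.41 and 0.31 in anti-CD86, -0.40 and 1.27 in TLR2.CD86, -2.00 and -1.59 in anti-CD40 and -1.65 and -1.96 in anti-CD40+Pam2CSK4. All 4 arrays with anti-CD40 lay below all 6 stimulated arrays without it, as they also did in u200009, n205050_u200009_AK133110 and u180569. The share of all probes with such a split was not counted. The margin was 1.96, and with the dim unstimulated spot set to the same kind of floor the means ran from at least 3.82-fold over unstimulated in anti-CD40+Pam2CSK4 and 3.86-fold in anti-CD40 to 18.1-fold in TLR2.CD86. Its replicates were among the widest apart, by 1.71 in anti-CD86 and 1.67 in TLR2.CD86.

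u180569 was at 1.18 on both unstimulated arrays, above their 75th percentiles and well above background. It stood at 4.25 and 5.48 in Pam2CSK4, 5.12 and 5.71 in anti-CD86, 5.44 and 6.62 in TLR2.CD86, 2.26 and 3.89 in anti-CD40 and 3.73 and 3.63 in anti-CD40+Pam2CSK4. The first anti-CD40 array set the margin of 1.07, the narrowest of the 5, while the other 9 stimulated arrays were all above 3.6. The means were 28.8-fold over unstimulated in TLR2.CD86, 18.9-fold in anti-CD86, 12.9-fold in Pam2CSK4, 5.65-fold in anti-CD40+Pam2CSK4 and 3.72-fold in anti-CD40.

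n181219_u180000_AK154890 had another order of conditions. Its unstimulated arrays were at -4.85 and -5.85, neither well above background, and it stood at -3.22 and -2.79 in Pam2CSK4, -3.70 and -3.22 in anti-CD86, -3.46 and -2.60 in TLR2.CD86, -2.63 and -1.93 in anti-CD40 and -2.07 and -2.26 in anti-CD40+Pam2CSK4. The 4 arrays with anti-CD40 were above the 6 without it, apart from an overlap of the first anti-CD40 array (-2.63) with the second TLR2.CD86 array (-2.60). Since the unstimulated spots give only a bound, taken as the lowest signal among probes well above background on each array, the level was at least 3.07-fold higher in anti-CD40+Pam2CSK4, 2.84-fold in anti-CD40, 1.71-fold in Pam2CSK4, 1.68-fold in TLR2.CD86 and 1.25-fold in anti-CD86. The margin of 1.16 was measured against a value below background.

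Differences among the 5 stimulated conditions did not enter the rule beyond its floor and could be tested. In limma, with 1 coefficient for each condition over all 12 arrays and Benjamini-Hochberg adjustment over 31596 probes, 3 of the 5 members differed among the stimulated conditions, where 14.5% of all probes tested did. These were n205050_u200009_AK133110 (adjusted p = 0.0365), u200009 (adjusted p = 0.0397) and u180569 (adjusted p = 0.0482), and n205050_u200009_AK133110 and u200009 are the overlapping pair. n199528_u195428_AK082398 (adjusted p = 0.142) and n181219_u180000_AK154890 (adjusted p = 0.182) did not pass. The 3 calls lie close to the threshold of 0.05, and leaving out 1 array gave between 0 and 3 members, with 0 in 6 of the 12 cases (either anti-CD40+Pam2CSK4 array, anti-CD40 replicate 1, or replicate 2 of Pam2CSK4, TLR2.CD86 or anti-CD86). With slide as a block, all 5 members passed (adjusted p from 0.000656 for u180569 to 0.0248 for n181219_u180000_AK154890), where 52.4% of all probes did.

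Anti-CD40 against anti-CD86, the costimulatory signals given alone, set 4 members against the other. The log2 difference of anti-CD40 from anti-CD86 was -2.34 ± 0.61 (SE) for u180569, -1.74 ± 0.66 for u200009, -1.48 ± 0.43 for n205050_u200009_AK133110 and -1.24 ± 0.68 for n199528_u195428_AK082398. For n181219_u180000_AK154890 it was 1.18 ± 0.42. The 2 arrays of one condition did not overlap those of the other in any of the 5 members, which was so for 45.1% of all probes tested.

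By limma without the slide term, 0 of 5 members passed in this comparison, where 10% of all probes did. An unadjusted p below 0.05 was found for 4 of 5, and for 7608 of the 31596 probes tested. u180569 missed the threshold narrowly (adjusted p = 0.05003), and the authors' own value table, which differs from these levels by a constant for each array, put it at an adjusted p of 0.0499. With slide as a block the differences were the same size and all 5 passed, where 34.7% of all probes did, with 4 members lower in anti-CD40 (18.6% of all probes) and 1 higher (16.1%). The adjusted p was 0.000490 for u180569, 0.0101 for n205050_u200009_AK133110, 0.0225 for u200009, 0.0243 for n181219_u180000_AK154890 and 0.0306 for n199528_u195428_AK082398.

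The direction was the same on each slide, where 1 array of each condition met. u180569 was lower in anti-CD40 than in anti-CD86 by a log2 difference of -2.87 on slide 1 and -1.82 on slide 2, and u200009 by -1.52 and -1.95. n181219_u180000_AK154890 was higher by 1.07 and 1.29. With the block and 1 of the 4 arrays of this comparison also left out, fewer members passed. The array that remains is then taken to vary like the other conditions. There were 2 without anti-CD40 replicate 1, 1 without anti-CD40 replicate 2, 3 without anti-CD86 replicate 1 and 1 without anti-CD86 replicate 2.

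Adding anti-CD40 to Pam2CSK4 went the same way. The log2 difference of anti-CD40+Pam2CSK4 from Pam2CSK4 was -2.26 ± 0.66 (SE) for u200009, -1.55 ± 0.68 for n199528_u195428_AK082398, -1.30 ± 0.43 for n205050_u200009_AK133110 and -1.19 ± 0.61 for u180569, and n181219_u180000_AK154890 differed by 0.84 ± 0.42. The arrays did not overlap in any of the 5 members, as in 58.5% of all probes. By limma 0 of 5 passed, where 9.91% of all probes did. An unadjusted p below 0.05 was found for 2 members, and for 8458 of the 31596 probes tested. With slide as a block, u200009 was lower (-1.73, adjusted p = 0.0309) and n181219_u180000_AK154890 higher (1.15, adjusted p = 0.0355), where 31.4% of all probes passed, 14.2% lower and 17.1% higher. With 1 array also left out the block called 0 to 3 members, with 0 without either Pam2CSK4 array, either TLR2.CD86 array or anti-CD40+Pam2CSK4 replicate 2, 1 without anti-CD40+Pam2CSK4 replicate 1 or any anti-CD40 or anti-CD86 array, and 3 without either unstimulated array. Both anti-CD40+Pam2CSK4 arrays were on slide 1, where the differences from the single Pam2CSK4 array were -1.73 for u200009 and 1.06 for n181219_u180000_AK154890.

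For Pam2CSK4 added to anti-CD40, the result rested on how the slide was handled. The log2 differences of anti-CD40+Pam2CSK4 from anti-CD40 ran from -0.02 for n199528_u195428_AK082398 to 0.60 for u180569, and the arrays overlapped in all 5 members. Limma called 0 of 5, where 2.9% of all probes passed. None had an unadjusted p below 0.05, against 6221 of the 31596 probes tested. These differences set 2 arrays of slide 1 against 1 array of each slide. On slide 1 both anti-CD40+Pam2CSK4 arrays lay above the anti-CD40 array in all 5 members, of which the overlapping pair count as 1 target. The share of all probes with this order was not counted, so it is not read as a trait of the members. The mean of the 2 anti-CD40+Pam2CSK4 arrays was higher by 0.19 for n199528_u195428_AK082398 to 1.42 for u180569. With slide as a block, u180569 was 1.18 ± 0.23 (SE) higher with Pam2CSK4 (adjusted p = 0.0191), where 15% of all probes passed. The block called 0 members without either anti-CD40+Pam2CSK4 array or anti-CD40 replicate 1, and 2 without either unstimulated array.

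For TLR2.CD86, the combined signal was the highest condition in 4 members. Its distance from the single signals was not large beside the spread of the fit without a slide term, which holds the difference between slides. Against Pam2CSK4 the log2 differences were 1.16 ± 0.61 (SE) for u180569, 0.70 ± 0.68 for n199528_u195428_AK082398, 0.69 ± 0.66 for u200009, 0.55 ± 0.43 for n205050_u200009_AK133110 and -0.02 ± 0.42 for n181219_u180000_AK154890. On slides 1 and 2 in turn they were 1.19 and 1.13 for u180569, 0.61 and 0.77 for u200009, and 0.58 and 0.51 for n205050_u200009_AK133110. They were 0.39 and 1.00 for n199528_u195428_AK082398, and -0.24 and 0.19 for n181219_u180000_AK154890. Limma called 0 of 5, where 0.0633% of all probes passed, and with slide as a block it called u180569 alone (adjusted p = 0.0247), where 10.7% of all probes passed. The block called 0 members when any of the 4 arrays of this comparison was left out. No member had an unadjusted p below 0.05 without the block, where 3264 of the 31596 probes tested did.

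Against anti-CD86 alone, all 5 members were higher in TLR2.CD86 by the mean. The differences were 1.41 ± 0.66 (SE) for u200009, 0.98 ± 0.68 for n199528_u195428_AK082398, 0.69 ± 0.43 for n205050_u200009_AK133110, 0.61 ± 0.61 for u180569 and 0.43 ± 0.42 for n181219_u180000_AK154890 on the log2 scale. On slides 1 and 2 in turn they were 1.41 and 1.41, 1.00 and 0.96, 0.82 and 0.56, 0.32 and 0.90, and 0.24 and 0.62 in the same order. Limma called 0 of 5 with and without the slide block, where 7.55% and 0.225% of all probes passed. With the block 3 members had an unadjusted p below 0.05, as did 8418 of the 31596 probes tested. Without the block 0 members did, against 2785 probes. The arrays of u200009 and n205050_u200009_AK133110 did not overlap between these conditions, as in 32.7% of all probes, whereas those of the other 3 members did. Over the 5 members the median log2 difference was 0.69 from Pam2CSK4 and 0.69 from anti-CD86 for TLR2.CD86, -1.30 from Pam2CSK4 and 0.20 from anti-CD40 for anti-CD40+Pam2CSK4, and -1.48 for anti-CD40 from anti-CD86. With slide as a block the medians for anti-CD40+Pam2CSK4 were -0.94 from Pam2CSK4 and 0.65 from anti-CD40, and the others were unchanged. The same medians over all probes tested lay between -0.01 and 0.05.

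The highest and the lowest condition repeated between the slides. Among the 4 conditions with an array on each slide, u200009, n205050_u200009_AK133110, n199528_u195428_AK082398 and u180569 had TLR2.CD86 highest and anti-CD40 lowest on both, an order that 2.98% of the 8427 noncoding RNA probes tested and 2.77% of all probes tested had. n181219_u180000_AK154890 had anti-CD40 highest and anti-CD86 lowest on both, as did 7.49% of those noncoding RNA probes and 5.92% of all probes. In this member Pam2CSK4 was above TLR2.CD86 on slide 1 and below it on slide 2. In the other 4 members Pam2CSK4 and anti-CD86 lay between the highest and the lowest. The arrays of Pam2CSK4 and anti-CD86 overlapped in every member, and their order was not the same in all. Pam2CSK4 was above anti-CD86 on both slides in the overlapping pair and in n181219_u180000_AK154890, below it on both in u180569, and on slide 1 only in n199528_u195428_AK082398.

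All 5 members were brighter on slide 2. In the 4 conditions split over the slides the second array was higher than the first in every member, as in 44.3% of noncoding RNA probes and 20.3% of all probes tested. With a slide term in limma the difference was 1.21 ± 0.24 (SE) for n199528_u195428_AK082398, 1.16 ± 0.15 for u180569, 1.07 ± 0.31 for u200009, 0.66 ± 0.21 for n205050_u200009_AK133110 and 0.62 ± 0.21 for n181219_u180000_AK154890, and all 5 passed (adjusted p from 0.00149 to 0.0443), where 57.2% of all probes passed and 17.9% were higher on slide 2. With arrays scaled to their medians, the slide difference fell to 0.12 for n205050_u200009_AK133110 and 0.09 for n181219_u180000_AK154890. With this scaling 2 of 5 passed, as did 24225 of the 31596 probes tested, 1977 of them higher on slide 2.

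Both unstimulated arrays were on slide 1, so the slide moves with the step from unstimulated to stimulated cells on the slide 2 arrays. The rule asked for a margin of at least 1 on every stimulated array, so meeting it on each slide is no check on the slide. Over the slide 1 stimulated arrays the margin was 4.50, 2.02, 1.96, 1.16 and 1.07 in the order in which the sequences are listed. On slide 2 it was 5.29, 2.73, 2.38, 1.63 and 2.71. The 6 stimulated arrays of slide 1 thus set the margin in all 5 members.

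The distance between replicates was set beside that of other noncoding RNA probes. Over the 6168 noncoding RNA probes well above background on all stimulated arrays, the median distance between the replicates of a condition was 0.12 in anti-CD40+Pam2CSK4, where both arrays shared a slide, and 0.29 to 0.38 in the other stimulated conditions. The members' distances were 0.41 to 1.71 in those other conditions, each above the median of its condition, and 0.10 to 1.07 in anti-CD40+Pam2CSK4, where u180569 at 0.10 lay below the median. In anti-CD40+Pam2CSK4 u200009 was the member with its arrays 1.07 apart, and the others were at most 0.31 apart.

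Over the 10 stimulated arrays, 4 members followed one another. The root mean square difference of their centred log2 levels was 0.38 to 0.55 among u200009, n205050_u200009_AK133110, n199528_u195428_AK082398 and u180569, and 1.26 to 1.67 between these and n181219_u180000_AK154890. The members' own root mean square deviation was 0.57 to 1.35 against a median of 0.24 over 26194 probes. The probe of Lalba, the milk protein alpha-lactalbumin, was among the 5 nearest patterns of each of the 4, at 0.38 to 0.69. The nearest to n181219_u180000_AK154890 were n200235_u196010_AK046951 at 0.16, at -2.17 on both unstimulated arrays and -2.23 to -0.51 on the stimulated ones, and u187564 at 0.17.

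Lalba was also one of the 2 probes outside the noncoding RNA class that met the rule. It stood at -4.91 and -4.80 in unstimulated cells, neither well above background, and at -3.16 in its lowest stimulated array, from anti-CD40, and -0.47 in its highest, from Pam2CSK4. The other, C030048H21Rik, was at -4.41 and -4.60 in unstimulated cells, again not above background, and lay between -3.30 and -2.54 on all 10 stimulated arrays. Its stimulated arrays therefore spanned less than 1 log2 unit, against 1.77 to 4.36 in the 5 members.

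Around the rule, 6168 of the 20679 noncoding RNA probes were well above background on all stimulated arrays, and 897 of these had every stimulated array above both unstimulated ones. Among the 6064 that were well above background on all 12 arrays, 847 had every stimulated array above both unstimulated ones and 206 had every one below. Among probes well above background on both unstimulated arrays, 0 had every stimulated array at least 1 log2 unit below the lower of them. Just outside the margin were u205368 at 0.98, u190853 at 0.88 and u193919 at 0.86, and just inside were u180569 at 1.07 and n181219_u180000_AK154890 at 1.16. u193919 was bright throughout, at 4.31 and 4.02 in unstimulated cells and 5.18 to 7.08 in stimulated ones. Another 3 probes met the margin without being well above background on every stimulated array, namely u198416 at 1.35, u203588 at 1.33 and n197920_u194077_AK084497 at 1.13.

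A pair of probes could not be judged because outlier spots were left out. n201347_u196898_AK041289 lacked 5 arrays, among them the first unstimulated one, and stood at -1.58 on the second against 0.78 to 5.17 on the stimulated arrays that remained. n204209_u199266_AK144949 lacked 3 arrays and stood at 2.40 on its single unstimulated array against 3.82 to 6.15. Their margins over the arrays present were 2.36 and 1.42. They were not counted as members, nor were they when the outlier spots were kept.

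Named noncoding RNA genes did not share the pattern. Of 30 such genes listed, 19 had a probe under that symbol and 14 of these were well above background on all 12 arrays. Of these genes 0 had every stimulated array above both unstimulated arrays, while 7 had every one below. Among the 6064 noncoding RNA probes well above background on all arrays, those counts were 847 and 206. The share over all probes was not counted. The gap below the unstimulated arrays ran from 0.002 for Rpph1 to 0.40 for Rmrp. Among the 7 were Rmrp, the RNA component of a ribonucleoprotein that processes ribosomal RNA, at 4.52 and 4.55 in unstimulated cells and 2.84 to 4.12 in stimulated ones. Neat1, the scaffold of nuclear paraspeckles, went from 3.40 and 3.51 to between 2.42 and 3.37. Pvt1, a lncRNA next to Myc, was at -0.12 and -0.11 in unstimulated cells and -0.32 to 1.22 in stimulated ones. Its means were 1.04 in anti-CD40 and 1.19 in anti-CD40+Pam2CSK4, against -0.09 in Pam2CSK4, -0.27 in anti-CD86 and -0.04 in TLR2.CD86.

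The cells carried the markers of their label. All 7 B cell genes used, among them Cd79a and Ms4a1, were well above background on every array. Their summed level, the log2 of their added signals, was 8.25 to 8.38 in unstimulated and 8.13 to 8.81 in stimulated cells. The brightest genes of a list weigh most in such a level, here Cd79b and Ms4a1. Markers of other cells were also present. Well above background on all arrays were 4 of 5 T cell genes (summed level 3.77 to 3.80 unstimulated, 3.16 to 3.71 stimulated), 5 of 5 myeloid genes (7.11 to 7.12, and 6.37 to 6.85), 2 of 3 NK cell genes (2.24 to 2.25, and 1.62 to 2.21) and 3 of 3 red cell genes (6.40 to 6.41, and 5.87 to 6.73). Of 3 liver genes, 0 were well above background on all arrays, and their summed level was 2.24 to 2.30 unstimulated and -2.29 to 1.89 stimulated. Among them was Alb, the plasma protein albumin, with a mean of 2.18 in unstimulated cells, 1.40 to 1.64 in the stimulated conditions other than anti-CD40+Pam2CSK4, and -2.97 in anti-CD40+Pam2CSK4, whose arrays stood apart in this. Of 4 exocrine pancreas genes with a probe, 1 was well above background on all arrays, and the sum was -1.77 to -1.52 unstimulated and -1.71 to -0.97 stimulated. The T cell, myeloid, NK cell and liver sums were lower on every stimulated array, but most of their single genes were not. Every stimulated array was below both unstimulated ones in 2 of 5 T cell, 2 of 5 myeloid, 1 of 3 NK cell and 1 of 3 liver genes. In 0 genes of these lists was every stimulated array above both, and 0 genes of any list met the margin of the rule. The share of spots well above background was 46.6% to 50.6% on slide 1 and 48.7% to 60.6% on slide 2, highest on the second anti-CD40 array, and for noncoding RNA probes 33.8% to 38.8% and 37.8% to 53.6%. The part of these in the members' levels was not tested.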

How the data were processed

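Total RNA of 12 RB cell cultures was labelled with Cy3 and hybridised to a custom Agilent mouse array annotated to mm9. The deposited intensity values are the processed signals of Feature Extraction 10.5.1.1 per the file headers, which the authors obtained after background subtraction within each array. The deposited flags mark spots well above background, saturated or outlying. The authors also deposited a log2 value table, which equalled log2 of the processed signal minus 1 constant per array near its 75th percentile. GeneSpring GX is named in the methods, and its settings were not given in the sources used here.

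Here outlier spots were left out, log2 intensities were centred on the 75th percentile of each array and spots of a probe were averaged (Python 3.11.15, pandas 2.3.3). Levels were tested with limma 3.58.1 in R 4.3.3 over the probes that passed the filter on dim probes, with Benjamini-Hochberg adjustment and a threshold of 0.05, as the methods' one-way comparison without a slide term. The alternatives were other scalings, normexp background correction with an offset of 50, slide and replicate blocks, no filter on dim probes, outlier spots kept and each array left out. The code was tested on simulated data. All members are named, as the rule for named probes allows up to 25, with the neighbouring genes and the noncoding RNA list. The members and lists were chosen with earlier results of these data known. The number of arrays, 2 per condition, limits the precision, and p-values measure the spread between these arrays. A gene of the B cell marker list is not reported here and was left out of its count and sum.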

Additional observations from a re-analysis of the deposited data

How the results depend on the processing

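The same 5 probes met the rule with median or quantile scaling, in the authors' value table and with outlier spots kept. With normexp and an offset of 50, which raises dim signals, u200009 alone met it. A threshold of 0.5 gave 35 probes, 1.5 gave 3, and dropping the background flag gave 8. Leaving out 1 array gave 5 to 16, each set holding the 5, with 16 without unstimulated replicate 1.

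Members that differed among the stimulated conditions numbered 1 with quantile scaling, 0 with no filter on dim probes, 5 with slide as a block and 0 to 3 with 1 array left out (4 to 5 with the block as well, chosen after seeing the data). For anti-CD40 minus anti-CD86 the count was 3 with median scaling, 2 with normexp, 1 in the value table, 5 with slide as a block, 1 with the replicate block and 0 to 1 with 1 array left out (1 to 5 with slide as a block as well). For anti-CD40+Pam2CSK4 minus Pam2CSK4 it was 1 with median scaling, 2 with normexp and 2 with slide as a block. The slide block gave 1 each for anti-CD40+Pam2CSK4 minus anti-CD40 and TLR2.CD86 minus Pam2CSK4. With slide as a block and 1 array left out, also chosen after seeing the data, it was 0 to 3 for anti-CD40+Pam2CSK4 minus Pam2CSK4, 0 to 2 for anti-CD40+Pam2CSK4 minus anti-CD40, 0 to 1 for TLR2.CD86 minus Pam2CSK4, and 0 to 1 for TLR2.CD86 minus anti-CD86 (1 without either unstimulated array or anti-CD86 replicate 1). For slide 2 minus slide 1 it was 2 with median scaling, 2 with no filter and 2 to 5 with 1 array left out. The number of all probes passing moved as well. For anti-CD40 minus anti-CD86 it was 378 of 31596 with median scaling, 3811 with normexp and 3138 of 31664 in the authors' values. With the replicate and slide blocks it was 5400 and 10960. For anti-CD40+Pam2CSK4 minus Pam2CSK4 it was 237 with median scaling, 3574 with normexp and 9916 with slide as a block. Among the stimulated conditions, 5733 passed with quantile scaling and 1432 of 61207 with no filter. The cause of these moves was not tested.

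Replicate numbers are shared by the conditions, and 6 of 15 pairs of conditions had replicate differences correlated above 0.1. These were the pairs among the 4 conditions split over the slides, at 0.54 to 0.67. The other pairs, each with a condition held on slide 1 alone, ran from -0.11 to 0.07. In the 4 split conditions the arrays thus went together by slide or replicate number. The main test did not take this up, while slide as a block did. The replicate block kept 3 of 5 members among the stimulated conditions, where 7964 of the 31596 probes tested passed.

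Signs turned in the differences listed here, none of which passed without the slide block. For n199528_u195428_AK082398, anti-CD40+Pam2CSK4 minus anti-CD40 was 0.44 with median scaling, 0.19 with quantile scaling, 0.12 with normexp, 0.59 with slide as a block and -0.22 to 0.19 with 1 array left out. In the same contrast, leaving out 1 array gave -0.34 to 0.73 for u200009, -0.029 to 0.68 for n205050_u200009_AK133110, -0.23 to 0.46 for n181219_u180000_AK154890 and -0.21 to 1.42 for u180569. For TLR2.CD86 minus Pam2CSK4, n181219_u180000_AK154890 was 0.035 with normexp and -0.45 to 0.40 with 1 array left out, and n199528_u195428_AK082398 -0.14 to 1.53. For TLR2.CD86 minus anti-CD86, n181219_u180000_AK154890 was -0.0025 to 0.86.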
